A study of Mus musculus with 9 samples.

Results

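Muscle, vascular and blood-cell miRNAs, namely mmu-miR-1, mmu-miR-133a, mmu-miR-133b, mmu-miR-206, mmu-miR-143, mmu-miR-145, mmu-miR-126-3p, mmu-miR-126-5p, mmu-miR-451 and mmu-miR-486, were followed in cultured mouse hippocampal neurons. They were chosen by name, as 10 of the 650 miRNAs on the array, of which 611 are mouse and 39 mouse herpesvirus miRNAs, and star strands were not taken. The neurons came from C57BL/6 mice at postnatal day 1 and had been 10 days in vitro. Control cultures were left untreated, the NMDA cultures received 20 µM NMDA, an agonist of NMDA-type glutamate receptors, and the bicuculline cultures received 50 µM bicuculline, a blocker of GABA-A receptors that raises synaptic activity. Both treatments are labelled 4 h, and the methods describe a short NMDA exposure that was followed by washing. Each group has 3 arrays, from independent cell preparations according to the methods. The question was which of these muscle, vascular and blood-cell miRNAs gave signal in the cultures and whether either treatment went with a change.

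A miRNA pairs through its seed, bases 2 to 8, with target mRNAs and lowers their output. miR-1, miR-133a, miR-133b and miR-206 belong to the myomiRs of striated muscle, and miR-143 and miR-145 mark smooth muscle. miR-126, carried in an intron of Egfl7, marks endothelium. miR-451 and miR-486 are abundant in red blood cells, and miR-451 is matured by Ago2 without Dicer. The RNA came from whole cultures, which can hold glia and vascular cells beside neurons, so fewer cells of a type and less RNA per cell cannot be told apart.

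Mature sequences for 4 of the 10 were matched in RefSeq (GRCm38.p6) and are shown for their seeds and for the locus that joins miR-206 and miR-133b. As background, miR-1 is known to carry the same seed as miR-206, and miR-133a the same seed as miR-133b. Each reads 5′ to 3′ with the seed in capitals, and the RefSeq names are newer than those of the array.
mmu-miR-206-3p: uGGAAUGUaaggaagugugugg
mmu-miR-133b-3p: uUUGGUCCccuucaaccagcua
mmu-miR-126a-3p: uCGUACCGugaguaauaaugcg
mmu-miR-451a: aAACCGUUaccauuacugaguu
The match of members left out some entries of the reference used here, so the 4 of 10 need not be all that it holds. A search of the whole reference for shared seeds returned neither miR-1 nor miR-133a, so it could not settle which members share a seed. Among the 1679 mature names of the reference, the seed of miR-206-3p was also that of mmu-miR-6349 and mmu-miR-6382. The search returned 0 further names for the other 3 sequences. The first pair lies on chromosome 1, plus strand, miR-206-3p at chr1:20679055-20679076 and miR-133b-3p at chr1:20682834-20682855, and Mir206 and Mir133b are neighbouring genes. miR-126a-3p lies at chr2:26591402-26591423 and miR-451a at chr11:78073186-78073207, both on the plus strand. The hairpin Mir126a, chr2:26591357-26591429, is shown with its 3p arm, bases 46 to 67 of 73, in capitals, since only that arm was well above background on any array.
Mir126a: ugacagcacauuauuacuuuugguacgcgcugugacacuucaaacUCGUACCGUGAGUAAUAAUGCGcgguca

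Signals are given as a percentage of the array scale, the 75th percentile of the 265 probes well above background on every array. A probe counted as well above background on an array where at least 50% of its unflagged spots were marked so by the scanner software. Each member had 2 probes and was read from the brighter one. The lowest signal well above background was 4.39% to 8.40% of the scale, depending on the array. The arrays lay on 2 slides. Control 1 and 2, NMDA 1 and 2 and bicuculline 1 shared slide 1, and the other 4 shared slide 2. The SD of the negative-control spots was 1.59% to 1.88% on slide 1 and 0.77% to 1.37% on slide 2. All 6 neuron-enriched miRNAs listed for comparison, miR-124, miR-9, miR-128, miR-137, miR-138 and miR-153, were well above background on all 9 arrays. The viral miRNAs, for which these cultures have no known source, had an array median of -1.32% to -0.44% and a 95th percentile of 0.97% to 4.20%. Their highest reading was 1.79% to 12.3% depending on the array, the top value being on NMDA 3 and the next, 8.43%, on NMDA 2. On each of control 3, NMDA 2, NMDA 3 and bicuculline 2, 1 viral miRNA passed the rule for well above background. These readings reach the range of miR-133b and miR-126-3p and come close to the lowest of miR-1, 12.4%.

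Of the 10 members, miR-1 alone was well above background on all 9 arrays. This is 1 of 10 members, against 25.5% of the mouse miRNAs on the array. miR-126-3p was so on 5 arrays and miR-133b on 2. The other 7 members, miR-133a, miR-206, miR-143, miR-145, miR-126-5p, miR-451 and miR-486, were well above background on no array, against 61.5% of the mouse miRNAs. The count on all arrays was 0 when every spot of the probe was required and 2 by the software's own detection call, which added miR-126-3p.

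**Figure D1:**
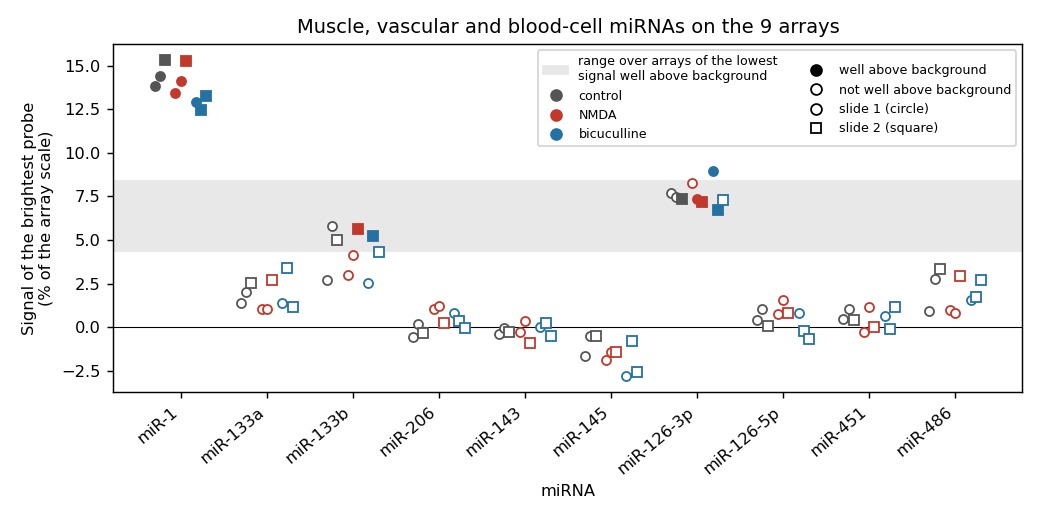
Signal of the brightest probe of each miRNA (vertical axis, % of the array scale) on every array, with control in grey, NMDA in red and bicuculline in blue. Filled symbols are well above background, circles are slide 1, squares are slide 2, and the grey band spans the lowest signal well above background over the arrays, 4.39% to 8.40%. miR-1 lies above the band on all 9 arrays, miR-126-3p mostly within it, and 7 miRNAs have open symbols throughout.

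**Figure D2:**
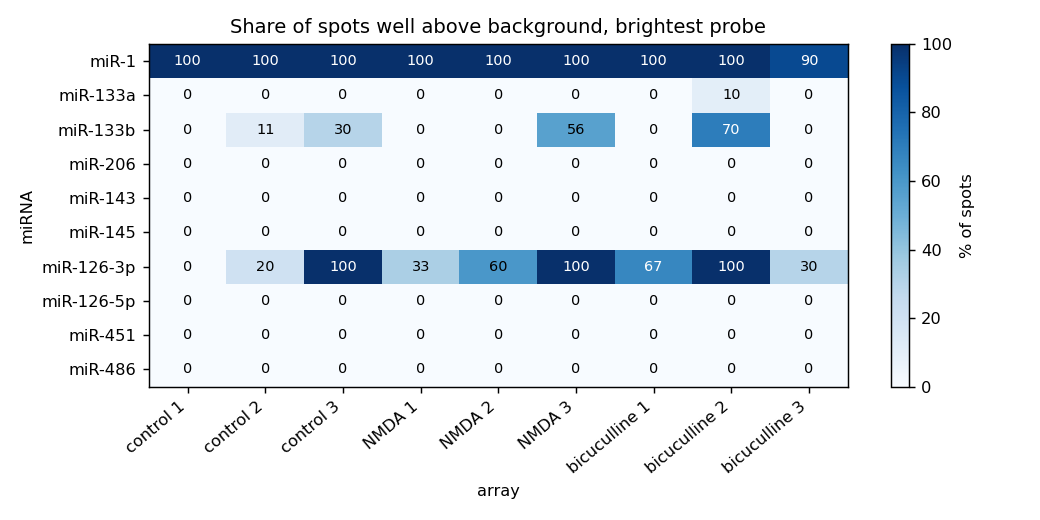
Share of unflagged spots marked well above background (% of spots, colour and number) for the brightest probe of each miRNA (rows) on each array (columns). miR-1 stands at 90% or 100% on every array, miR-126-3p ranges from 0% to 100%, and miR-133b reaches 70% on bicuculline 2.

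Among the striated-muscle miRNAs, mmu-miR-1 read 13.8%, 14.4% and 15.3% of the scale in control 1 to 3. It read 13.4%, 14.1% and 15.3% in NMDA 1 to 3 and 12.9%, 12.4% and 13.3% in bicuculline 1 to 3. The control and NMDA arrays overlapped, while all 3 bicuculline arrays lay below all control and all NMDA arrays. The means were 14.5% ± 0.76, 14.3% ± 0.91 and 12.9% ± 0.41 (SD, n = 3 each). Before scaling, the signal of this probe was 55.2 to 91.8 intensity units, on arrays whose scale was 416 to 645 units. Of its 84 unflagged spots over the 9 arrays, 83 were marked well above background.

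The 2 probes of miR-1 disagreed. The dimmer probe read 0.28% to 3.72% of the scale, and 0 of its 85 spots were marked well above background. The presence of miR-1 in these arrays therefore rests on 1 probe. Within groups its level varied with an SD of 0.07 on the log2 scale, against a median of 0.13 over the 156 mouse miRNAs well above background on all arrays. Over the 9 arrays, the levels most like it were those of miR-125b-5p (Pearson's r = 0.71) and miR-709 (r = 0.60), where the median r of the 155 other miRNAs was 0.07. These arrays share slides and scaling, and the r is a description.

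**Figure D3:**
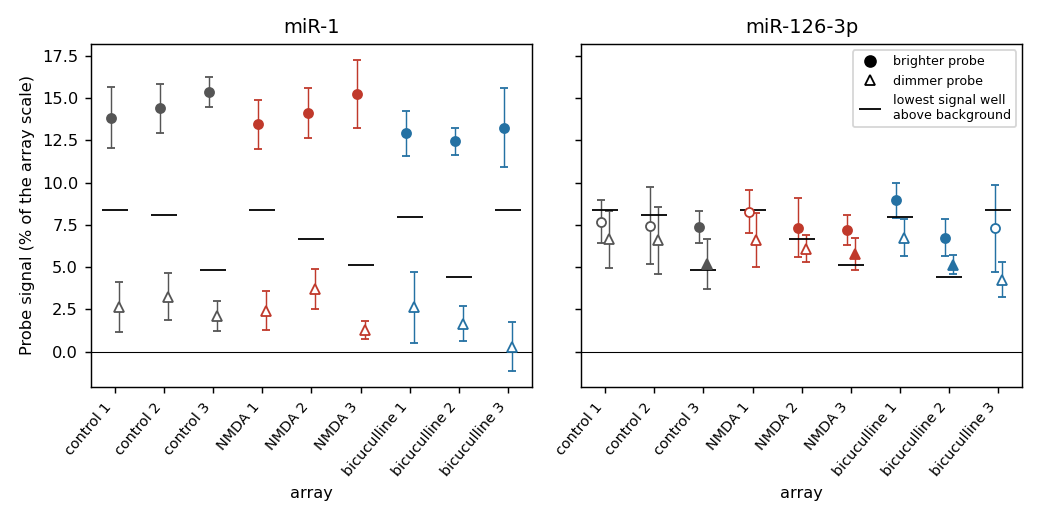
Signal of both probes of miR-1 (left) and miR-126-3p (right) on each array (vertical axis, % of the array scale, error bars are the SD over spots of the probe). Circles are the brighter and triangles the dimmer probe, filled where well above background, and black bars mark each array's lowest signal well above background. The dimmer miR-1 probe lies under the bar on all 9 arrays, while each probe of miR-126-3p lies above it on some arrays and under it on others.

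mmu-miR-133b, a partner of miR-206 at one locus, read 2.71%, 5.80% and 5.01% in control 1 to 3. It read 2.97%, 4.12% and 5.66% in NMDA 1 to 3 and 2.54%, 5.21% and 4.29% in bicuculline 1 to 3. The groups overlapped in every pairing, and only NMDA 3 and bicuculline 2, both on slide 2, passed the detection rule. A viral miRNA also passed on both of these arrays. On slide 2 its mean was 5.04% ± 0.57 (SD, n = 4) and on slide 1 it was 3.63% ± 1.36 (SD, n = 5). The part of the slide, or of the scanner software version that differed with it, in these detections was not tested. Its other probe stayed between -0.82% and 1.19%.

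mmu-miR-206 itself was well above background on no array and read -0.55% to 0.19% in control, 0.25% to 1.24% in NMDA and -0.06% to 0.81% in bicuculline. All 3 NMDA arrays lay above all 3 control arrays, but the share of all miRNAs in this arrangement on the unfloored signal was not counted. Every value was under the background limit of its array, so no fold is given. By the exact permutation test this difference of 1.08% had a two-sided p of 0.1, the smallest that 3 arrays against 3 allow, and 1 after adjustment over the 30 comparisons of 10 members. mmu-miR-133a, which is made with miR-1 from common transcripts, read 1.03% to 3.38% over the 9 arrays, and 1 of its 85 spots was marked, on bicuculline 2. A list of further muscle miRNAs and hairpin or cluster partners held 9 names. Of the 7 on the array, among them miR-208a, miR-208b and miR-499 of heart and slow muscle, 0 were well above background on any array, with signals of -1.37% to 2.15%.

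The smooth-muscle pair miR-143 and miR-145, which are processed from a common transcript, were not well above background in any group. mmu-miR-143 read -0.89% to 0.33% over the 9 arrays with 0 of 89 spots marked. mmu-miR-145 read -2.81% to -0.49% with 0 of 88 spots marked, and was negative after background subtraction on every array. The lowest miR-145 values were -2.81% and -2.58%, on bicuculline 1 and bicuculline 3, while bicuculline 2 at -0.81% lay among the controls.

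Among the vascular miRNAs, mmu-miR-126-3p lay at the limit of detection. It read 7.68%, 7.45% and 7.38% in control 1 to 3. In NMDA 1 to 3 it read 8.27%, 7.33% and 7.19%, and in bicuculline 1 to 3 it read 8.94%, 6.74% and 7.29%. All groups overlapped, and the means were 7.50% ± 0.16, 7.60% ± 0.59 and 7.66% ± 1.15 (SD, n = 3 each). The arrays that passed were control 3, NMDA 2 and 3, and bicuculline 1 and 2, that is 2 of 5 on slide 1 and 3 of 4 on slide 2. Control 1, with 7.68%, did not pass on slide 1, whereas bicuculline 2, with 6.74%, passed on slide 2, where negative controls varied less. The limit also differed within slides, since NMDA 2, with 7.33%, passed on slide 1 and bicuculline 3, with 7.29%, did not pass on slide 2. The slides were also read with different versions of the scanner software. The part of the slide's spread or of the version in these detections was not tested.

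Unlike miR-1, the 2 probes of miR-126-3p gave similar readings, the dimmer one 4.26% to 6.74%, well above background on 3 arrays, all on slide 2. The differences between group means of its brighter probe were 0.10% for NMDA minus control, 0.16% for bicuculline minus control and -0.06% for NMDA minus bicuculline, with exact permutation p of 1, 1 and 0.9. The opposite arm, mmu-miR-126-5p, read -0.66% to 1.58%, and 0 of its 82 spots were marked. Its other probe gave -1.08% to 1.60%. Thus 1 arm of the hairpin printed above was measured on some arrays and the other on none, and this compares each arm with background, not the arms with each other. Of the 4 further vascular miRNAs listed, miR-221 was well above background on all 9 arrays, miR-222 on 5, and miR-10a and miR-10b on 0. miR-221 and miR-222 are known in endothelium but are not limited to it.

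The red-cell miRNAs were not well above background in any group. mmu-miR-451 read -0.26% to 1.18% with 0 of 87 spots marked. Its mean was 0.64% ± 0.35 in control, 0.31% ± 0.77 in NMDA and 0.57% ± 0.64 in bicuculline (SD, n = 3 each), so that the groups overlapped. Its cluster partner miR-144 was well above background on 0 arrays. mmu-miR-486 read 0.82% to 3.33% with 0 of 90 spots marked. By slide, miR-486 read 1.41% ± 0.79 (SD, n = 5) on slide 1 and 2.69% ± 0.67 (SD, n = 4) on slide 2. Of 5 miRNAs of white blood cells and microglia, miR-142-3p, miR-142-5p, miR-150, miR-155 and miR-223, 0 were well above background on any array, with signals of -1.70% to 3.46%.

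The fit with limma took in miRNAs that were well above background throughout at least 1 of the groups, and of the members only miR-1 met this. In NMDA minus control, 0 members were called, where 8.29% of the 181 miRNAs tested had an adjusted p under 0.05. The 181, which also underlie the overlap shares below, include miRNAs not well above background on all 9 arrays. In a fit of the 156 that were, miR-1 included, limma called 3 higher and 0 lower. The log2 difference of miR-1 was -0.03 (SE 0.09, 95% interval -0.23 to 0.18, limma adjusted p = 0.991). Its groups overlapped, where 9.39% of miRNAs had all NMDA arrays above and 5.52% all below control. Within slides it differed by -0.03 on slide 1 and -0.01 on slide 2, the latter with 1 array against 1.

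In bicuculline minus control, limma called 0 members, where it called 0.621% of the 161 miRNAs tested. miR-1 differed by -0.17 on the log2 scale (SE 0.09, 95% interval -0.37 to 0.02, limma adjusted p = 0.999). Its 3 bicuculline arrays lay below its 3 control arrays, an arrangement seen in 1.86% of the miRNAs tested, and 1.24% had the bicuculline arrays above. The difference was -0.13 within slide 1 and -0.26 within slide 2, each with a single array on one side. The exact permutation p on the unfloored signal was 0.1, and 1 after adjustment over the 30 comparisons. The unadjusted p fell under the threshold in 1 fit over all arrays (0.0492), with the mean of both probes (0.0208), without the detection filter (0.0258) and by the methods' t-test (0.0272), and the adjusted p did not (0.315 to 1 over all alternatives).

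In NMDA minus bicuculline, limma called 0 members, where it called 8.84% of 181 miRNAs. miR-1 was 0.15 higher in NMDA on the log2 scale (SE 0.08, 95% interval -0.05 to 0.34, limma adjusted p = 0.720), with no overlap between the groups. Among all miRNAs tested, 11% had the NMDA arrays above and 2.21% below. Within slides the difference was 0.09 and 0.25, each with a single array on one side. When arrays were scaled to all probes instead, the median of all miRNAs moved to -0.47 and miR-1 stood at -0.33 (limma adjusted p = 0.0378), which is 0.14 above that median, so the sign of this difference depends on the scaling. Under that scaling 16 of the 181 miRNAs were called higher and 127 lower, so that the call of miR-1 was shared by most miRNAs tested. At an unadjusted p under 0.05 the count of members was 0 by limma in all 3 comparisons, and by the methods' t-test it was 0, 1 and 0 in the order given. Over all miRNAs the same limma counts were 20 of 181, 2 of 161 and 24 of 181, and those of the methods' t-test were 21, 4 and 20. Both treatments were set against the same control arrays, so the comparisons are not independent.

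**Figure D4:**
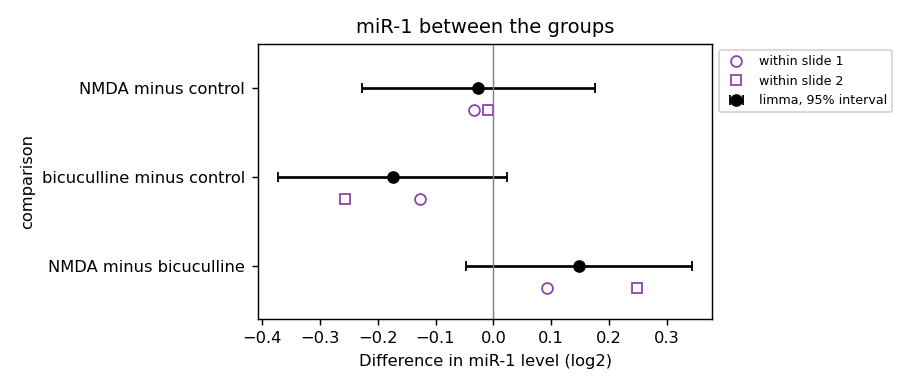
Difference in miR-1 level (horizontal axis, log2) for the 3 comparisons, with the limma estimate and its 95% interval in black and the difference within slide 1 (circle) and slide 2 (square) below it. All 3 intervals include 0, and the bicuculline minus control estimate is -0.17.

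The scanner software's summary value for a whole miRNA, its total gene signal, gave a different picture of miR-1. On the 5 arrays of slide 1, read with software 10.7.1.1, it was 2169 to 2694, which is 35.1 to 38.5 times the sum of the total signals of its 2 probes. On the 4 arrays of slide 2, read with 10.7.3.1, it was 36.7 to 60.8, or 0.88 to 0.98 times that sum. The spot signals of miR-1 showed no such step, with 75.4 to 91.8 units on slide 1 and 55.2 to 90.2 on slide 2. miR-133b had a ratio of 39.7 on control 2, the only slide 1 array where the software called it detected, and 0.82 to 0.89 on 3 slide 2 arrays. miR-126-3p had a ratio of 1 on slide 1. Over all miRNAs the software called detected, 51 to 59 per array exceeded the sum by more than a factor of 1.1 on slide 1, and 0 did on slide 2. The cause was not tested. With this summary miR-1 differed by -1.79 for bicuculline minus control and by 1.80 for NMDA minus bicuculline on the log2 scale, with an SE of 1.97 and 1.98, and bicuculline had 2 of its 3 arrays on slide 2 where the other groups had 1.

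In the authors' own log2 table, which runs from 6.80 to 12.96 with array medians of 7.06 to 7.08, the authors' values for miR-1 averaged 7.50 in control, 7.46 in NMDA and 7.45 in bicuculline. Those for miR-126-3p averaged 7.45, 7.43 and 7.45. That table followed the scanner values with a slope of 0.60 to 0.66 and r of 0.97, so differences are smaller on it, and its centring is not stated.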

How the data were processed

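Total RNA was hybridised to one-colour Agilent mouse miRNA arrays, 9 in all. The authors deposited scanner output, whose spot intensity values were background-subtracted by Agilent Feature Extraction (10.7.1.1 on slide 1, 10.7.3.1 on slide 2) with no normalization across arrays. They also deposited their processed values, which correlated with log2 of the scanner output at a slope of 0.60 to 0.66 and were taken as log2. The software flags used here are those of the deposited files.

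Control spots and 3278 flagged spots were left out and spots of a probe averaged. Scaling used, per array, the 75th percentile of 265 probes, with a floor at 7.94% of it before taking log2. The brightest probe stood for its miRNA. Groups were compared in pairs with limma 3.58.1 (R 4.3.3), two-sided and with no covariate. The p-values were adjusted by Benjamini-Hochberg over every miRNA in the fit, at a threshold of 0.05. The step was tested on simulated data. Members not well above background throughout at least 1 of the groups could not enter the main limma fit. All 10 members, miR-1 included, were compared by exact permutation (scipy 1.17.1) of the unfloored signal, an addition made after seeing the data. The number of arrays limits the precision.

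All 10 members are described. They and the related lists were chosen with earlier results of these data known.

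Pairing by replicate number was examined on 156 miRNAs, each centred on its mean in every group. The correlations between arrays of the same number were 0.36, 0.76 and 0.63 for NMDA and control. Each of these pairs lay on 1 slide, so pairing by number cannot be told apart from a shared slide. The main fit takes no pairing, and the replicate block is given as an alternative. The sources used here do not say what a number marks.

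Alternatives were other scalings (all probes, median, quantile, none), a lower floor, the mean of all probes, total gene signal, the authors' table, normexp with an offset of 50 on the median spot signal (the files used here hold no mean signal), the methods' t-test, 1 joint fit of the 9 arrays, blocks for replicate or for slide, other filters and detection rules, and leaving out each array.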

Additional observations from a re-analysis of the deposited data

How the results depend on the processing

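The count of members called was 0 in all 3 comparisons under every alternative, leaving out each array included (0 to 0), with 1 exception. Scaling to all probes gave 1 in NMDA minus bicuculline, miR-1 at -0.33 (limma adjusted p = 0.0378), against 0.15. That setting called 16 of 181 miRNAs higher and 127 lower. In most of these fits miR-1 was the only member tested, and miR-126-3p joined it when some single arrays were left out. Without the detection filter all 10 members entered. Those other than miR-1 and miR-126-3p then stood at the floor on every array and could not be called. The count of members well above background on all 9 arrays was 1, 0 with all spots required and 2 by the software call; without any 1 array it was 1. Over the alternatives other than total gene signal, miR-1 ranged from -0.60 (normexp) to 0.04 (no scaling) in NMDA minus control. In bicuculline minus control it ranged from -0.63 (normexp) to -0.05 (authors' table), and in NMDA minus bicuculline from -0.33 to 0.36 (no scaling). Under normexp the median of all miRNAs tested also moved, to -0.29 in each comparison with control, and the SE of miR-1 was 0.53. Quantile normalization also turned the sign of miR-1 in NMDA minus bicuculline, to -0.12, uncalled. Leaving out each array gave -0.07 to 0.02, -0.21 to -0.13 and 0.10 to 0.19. With the replicate block, miR-1 stood at -0.03, -0.17 and 0.15 (limma adjusted p = 0.827, 0.749 and 0.263), and the block changed no call. For bicuculline arrays, the correlations by number were 0.59, 0.08 and 0.72 with control and 0.62, -0.03 and 0.72 with NMDA. In both cases the low one crosses slides and the others share a slide. With the slide block the values were -0.03, -0.19 and 0.17. The cause of these shifts was not tested. By its brighter probe, miR-1 lay above the lowest signal well above background on every array, while its dimmer probe did so on none. The highest viral reading, 12.3% on NMDA 3, came close to the lowest of miR-1, 12.4% on bicuculline 2. On NMDA 3 itself miR-1 read 15.3%. miR-126-3p and miR-133b lay at the limit, and for the other 7 members no change could be measured.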
